A study of Mus musculus with 8 samples.

Results

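Immediate early genes are the genes whose transcription neurons and other cells switch on within minutes of a stimulus, before any new protein is made. The members described here are *Fos*, *Fosb*, *Junb*, *Egr1*, *Arc*, *Npas4*, *Nr4a1*, *Ier2*, *Dusp1* and *Btg2*, chosen by name. All 10 were found by their Ensembl identifiers among the 49585 genes of the table aligned to the B genome (C57BL/6J). All 10 passed the filter on low counts that left 23113 genes for testing. RNA was taken from whole brains of F1 females on postnatal day 1, born to C57BL/6J mothers and CAST/EiJ fathers. The dams drank water with 0 ppm CdCl2 (control pups) or 50 ppm CdCl2 (exposed pups) before and during gestation, and 4 pups were sequenced at each dose, each from its own litter. The control libraries held 29704044, 26741649, 30708087 and 25765997 counted reads in replicates 1 to 4, and the exposed libraries held 27943397, 28344410, 28163329 and 22916434. The replicate numbers only name the libraries and pair no pup with another.

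The proteins made from these genes divide the early response among themselves. FOS, FOSB and JUNB are leucine zipper proteins that dimerize into the transcription factor AP-1, EGR1 is a zinc finger activator, NR4A1 is an orphan nuclear receptor, and NPAS4 is a neuronal factor that responds to calcium influx and shapes inhibitory synapses. ARC acts at the synapse, where it promotes the removal of AMPA receptors. DUSP1 is a phosphatase that switches MAP kinases off again, BTG2 restrains proliferation and marks neural progenitors that are about to make neurons, and IER2 is a nuclear protein of the same early wave. Serum response factor with its ETS partners, and the cyclic AMP response element binding protein CREB, drive most of these genes. In the brain their RNA reports recent neuronal activity, and for most of them it decays soon after the stimulus, so its level depends on the moment of sampling.

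None of the 10 members was called as different between the doses, which does not show that their levels were equal. With edgeR's quasi-likelihood test, 0 of the 10 members had an adjusted p under 0.05, where 4 of the 23113 genes tested (0.0173%) did. At an unadjusted p under 0.05 there were 0 members as well, against 3.75% of all genes tested, 2.31% of them higher and 1.44% lower at 50 ppm. DESeq2 also called 0 members and gave 1 an unadjusted p under 0.05, *Dusp1*, beside 649 of all 23113 genes. In limma-voom with sample quality weights 0 were called and 2 had such a p, *Npas4* and *Dusp1*, beside 1130 of 23113 genes. The 2 groups of brains were fully separated, with no overlap, in 0 of the 10 members and in 2.09% of the genes tested (1.19% with the exposed brains higher and 0.904% lower). Counts of 0 among 10 genes are near those shares. Single libraries moved these counts. At an unadjusted p under 0.05 edgeR gave *Fos* and *Npas4* without 0 ppm replicate 3, where the count over all genes was also higher (1155 of 22727). It gave *Npas4* without 0 ppm replicate 1 (856 of 22759 genes) or 50 ppm replicate 4 (729 of 22773) and *Dusp1* without 0 ppm replicate 2 (813 of 22762), with 0 members called in each fit. Across the table edgeR called 20 genes without 0 ppm replicate 3, and without 0 ppm replicate 1 the groups of *Npas4* and *Btg2* were separate, as in 4.48% of all genes. The log2 fold change at 50 ppm over 0 ppm was above 0 for 5 members and below 0 for 5, with a median of −0.0036 over the members and −0.0033 over all genes tested. The counts come from whole brains, in which fewer cells of a type and less RNA per cell cannot be told apart.

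**Figure D1:**
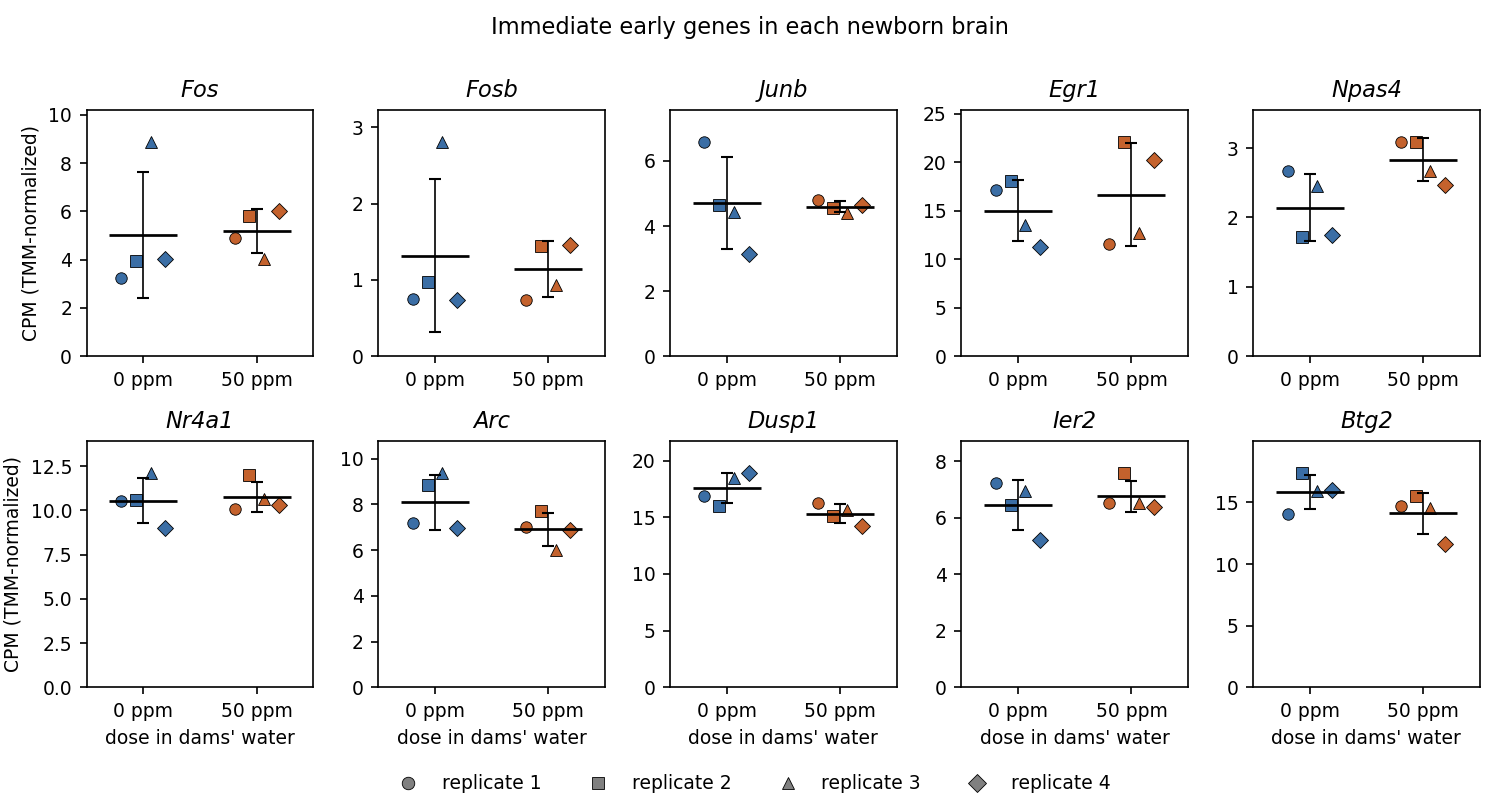
Level of each of the 10 immediate early genes in each newborn brain, as CPM after TMM normalization, by the dose in the dams' water; marker shapes give the replicate, horizontal lines the mean and bars the SD of 4 libraries. The groups overlap in every panel, *Npas4* and *Dusp1* least, and *Fos* and *Fosb* stand high in 0 ppm replicate 3 at 8.88 and 2.81 CPM.

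Promoter sequences are shown for 4 members, *Fos* and *Fosb* because they stood high in the same library and *Npas4* and *Dusp1* because their groups came nearest to separating. RefSeq promoter windows on GRCm38.p6, which run from 250 bases before the RefSeq start of a gene to 50 after it, were matched for 7 members. Windows for *Egr1*, *Arc* and *Ier2* were not matched. The RefSeq start can differ from the outermost GENCODE start, so the windows of *Dusp1*, *Nr4a1* and *Npas4* lie inside the GENCODE spans of these genes. The windows below are written 5′ to 3′ along the gene, and capitals mark every match to TGACGTCA (the full cyclic AMP response element), to its shorter core TGACG on either strand, which the full element contains on both strands, or to TATAAA in the direction of the gene. *Fos* was read from chr12:85473640-85473939 on the plus strand, *Fosb* from chr7:19309996-19310295, *Npas4* from chr19:4989922-4990221 and *Dusp1* from chr17:26508423-26508722, all 3 on the minus strand.
Fos: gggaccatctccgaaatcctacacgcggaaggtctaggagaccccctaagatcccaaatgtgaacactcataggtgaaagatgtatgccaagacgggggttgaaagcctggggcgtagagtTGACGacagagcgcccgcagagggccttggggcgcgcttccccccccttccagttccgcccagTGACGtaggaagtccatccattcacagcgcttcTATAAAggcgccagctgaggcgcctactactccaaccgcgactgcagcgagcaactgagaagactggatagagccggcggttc
Fosb: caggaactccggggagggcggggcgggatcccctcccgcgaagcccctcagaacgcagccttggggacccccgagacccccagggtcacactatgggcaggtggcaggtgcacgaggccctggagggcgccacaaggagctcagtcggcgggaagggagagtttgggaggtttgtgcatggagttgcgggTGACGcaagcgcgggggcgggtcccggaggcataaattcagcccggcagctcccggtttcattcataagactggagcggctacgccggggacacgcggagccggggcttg
Npas4: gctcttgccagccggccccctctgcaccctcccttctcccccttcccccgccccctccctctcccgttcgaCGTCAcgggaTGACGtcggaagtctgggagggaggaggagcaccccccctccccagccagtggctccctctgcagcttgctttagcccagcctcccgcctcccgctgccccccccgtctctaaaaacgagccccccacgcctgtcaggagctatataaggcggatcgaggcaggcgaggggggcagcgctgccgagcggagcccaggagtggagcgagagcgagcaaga
Dusp1: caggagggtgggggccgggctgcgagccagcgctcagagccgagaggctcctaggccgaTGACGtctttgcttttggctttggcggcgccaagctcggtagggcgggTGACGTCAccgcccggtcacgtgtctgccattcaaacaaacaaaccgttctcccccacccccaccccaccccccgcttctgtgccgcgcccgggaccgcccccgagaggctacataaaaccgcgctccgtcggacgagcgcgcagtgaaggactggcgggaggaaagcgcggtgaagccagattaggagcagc

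The core TGACG was present in all 7 promoter windows that were matched, and 20.8% of the 32851 RefSeq promoter windows of this length hold it. In *Fos* it began 129 and 66 bases before the start, the nearer copy upstream of a TATAAA that began 33 bases before the start. *Fosb* had 1 copy of the core, 60 bases before the start. *Npas4* had 2 copies, 179 and 169 bases before the start, and *Nr4a1* had 4. The full element occurred in 2 of the 7 windows, *Dusp1* at 143 and *Btg2* at 166 bases before the start, and in 1.79% of all windows. TATAAA occurred in *Fos* and *Junb* and in 8.32% of all windows. In *Junb* it began at position 1 after the start rather than before it. The CArG box, the motif that serum response factor binds, was searched for by its consensus and matched in 0 of the 7 windows and in 1.63% of all windows. Bases farther than 250 before the start, and *Egr1*, *Arc* and *Ier2*, were not searched. The 0 therefore does not show that the members lack the motif. These matches describe letters in short windows, and factor binding was not measured.

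*Fos* and *Fosb* had the largest SD of log2 CPM between brains among the members, pooled over both doses (0.48 and 0.69, next *Egr1* at 0.40). This order rested on 0 ppm replicate 3. Without that library the spread of *Fos* and *Fosb*, relative to genes of their level, was at the 47.8 and 56.7 percentiles, and that of *Egr1* at 98.1. *Fos* (ENSMUSG00000021250, 12:85473890-85477273, plus strand) had 3.24, 3.94, 8.88 and 4.03 CPM (read counts scaled to library size with TMM factors) in the control brains and 4.91, 5.79, 4.03 and 6.00 CPM in the exposed brains. The control brain of replicate 3 stood above all others, and the other 3 control brains lay below the lowest exposed brain (replicate 3), control replicate 4 by less than the rounding shows. Its mean was 5.02 ± 2.60 CPM at 0 ppm and 5.18 ± 0.901 at 50 ppm (SD, n = 4), a log2 fold change of 0.04 with a 95% interval of −0.49 to 0.56 (edgeR adjusted p = 0.999). That value rested on single libraries: it was 0.47 without 0 ppm replicate 3, and it lay below 0 without 0 ppm replicate 1 (−0.13), 2 (−0.064) or 4 (−0.054) and without 50 ppm replicate 2 (−0.023) or 4 (−0.038). Without 0 ppm replicate 3 all exposed brains lay above the remaining controls, where 5.43% of all genes had separate groups in either direction, and the adjusted p of edgeR was then 0.835.

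*Fosb* (ENSMUSG00000003545, 7:19302696-19310051, minus strand), whose shortened splice form accumulates in neurons after repeated stimulation, was the lowest member per exon length. It had 0.751, 0.967, 2.81 and 0.736 CPM in the control brains and 0.737, 1.44, 0.928 and 1.46 CPM in the exposed brains. The same control brain as for *Fos* was the highest, with 86 counts against 19 to 41 in the other 7 libraries. The log2 fold change was −0.23, with a 95% interval of −1.04 to 0.58, and turned to 0.47 without that library. *Junb* (ENSMUSG00000052837, 8:84974484-84978718, minus strand) had 6.59, 4.65, 4.44 and 3.14 CPM in the control brains and 4.81, 4.56, 4.39 and 4.63 CPM in the exposed brains. All 4 exposed brains lay inside the range of the controls and close to each other, with a log2 fold change of −0.04 (95% interval −0.43 to 0.36) that was 0.17 without 0 ppm replicate 1. Exons of *Prdx2* on the opposite strand cover 7.52% of the exon bases of *Junb*, and the strand setting of the count is not named in the sources used here.

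The other AP-1 genes of the lists did not separate the doses either. *Jun*, the main partner of FOS, had a mean of 49.1 ± 9.21 CPM at 0 ppm and 47.1 ± 6.65 at 50 ppm (SD, n = 4). *Jund* had 125, 130, 188 and 140 CPM in the control brains and 111, 141, 140 and 125 CPM in the exposed brains, and was also highest in 0 ppm replicate 3. *Fosl2* had 99.0, 64.4, 57.6 and 57.7 CPM in the control brains and 60.3, 53.2, 53.0 and 49.1 CPM in the exposed brains. Its log2 fold change was −0.37 with a 95% interval of −0.65 to −0.09, the one paralog whose interval left out 0, but the adjusted p of edgeR was 0.999 and 0 ppm replicate 1 stood apart from the other 3 controls. *Fosl1* was near the floor, with at most 5 counts in a library.

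*Egr1* (ENSMUSG00000038418, 18:34859823-34864984, plus strand) encodes a factor that links stimulation to lasting synaptic change, and its RNA divided the exposed brains into high and low. It had 17.2, 18.1, 13.6 and 11.3 CPM in the control brains and 11.6, 22.1, 12.7 and 20.3 CPM in the exposed brains. Exposed replicates 2 and 4 lay above every control, while exposed replicates 1 and 3 lay among the lower controls. The mean was 15.0 ± 3.17 CPM at 0 ppm and 16.7 ± 5.32 at 50 ppm (SD, n = 4), and the log2 fold change of 0.15 had a 95% interval of −0.25 to 0.54. Without 50 ppm replicate 2 it was −0.024. Of its paralogs, *Egr3*, which muscle spindles and neurons need, had 4.04 ± 1.43 and 3.76 ± 0.484 CPM, *Egr2*, the factor of hindbrain segments and Schwann cells, had 1.27 ± 0.363 and 1.34 ± 0.270 CPM, and *Egr4* had 1.74 ± 0.771 and 1.26 ± 0.318 CPM at 0 and 50 ppm. The 95% interval of the log2 fold change spanned 0 for all 3.

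*Npas4* (ENSMUSG00000045903, 19:4984355-4990316, minus strand) is the member most restricted to neurons. It had 2.66, 1.71, 2.45 and 1.74 CPM in the control brains and 3.09, 3.09, 2.68 and 2.47 CPM in the exposed brains. Exposed replicates 1, 2 and 3 lay above every control, and replicate 4 lay below control replicate 1. The mean was 2.14 ± 0.487 CPM at 0 ppm and 2.83 ± 0.309 at 50 ppm, a log2 fold change of 0.40 with a 95% interval of −0.02 to 0.82 (edgeR adjusted p = 0.999). An exact permutation test, two-sided, gave p = 0.0571; with 70 ways to label the brains its smallest possible p is 0.0286. *Dusp1* gave the same p. The counts behind the *Npas4* values were 45 to 88 per library.

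*Nr4a1* (ENSMUSG00000023034, 15:101254269-101274795, plus strand) varied little. It had 10.5, 10.6, 12.1 and 9.02 CPM in the control brains and 10.1, 12, 10.7 and 10.3 CPM in the exposed brains. All exposed brains lay within the range of the controls. The log2 fold change of 0.03 had a 95% interval of −0.23 to 0.28, which as a fold is 0.855 to 1.22. Its sign turned without 0 ppm replicate 4 (−0.038) and without 50 ppm replicate 2 (−0.027). Its paralogs *Nr4a2*, which dopamine neurons and cells of the claustrum and deep cortex express without stimulation, and *Nr4a3* had another pattern. *Nr4a2* had 105, 64.2, 42.9 and 54.9 CPM in the control brains and 62.2, 53.2, 52.4 and 63.9 CPM in the exposed brains. *Nr4a3* had 101, 65.7, 55.0 and 61.6 CPM in the control brains and 71.1, 49.2, 72.0 and 52.9 CPM in the exposed brains. For both, 0 ppm replicate 1 was the highest library, as it was for *Fosl2*, whereas *Nr4a1* was close to its mean there.

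**Figure D2:**
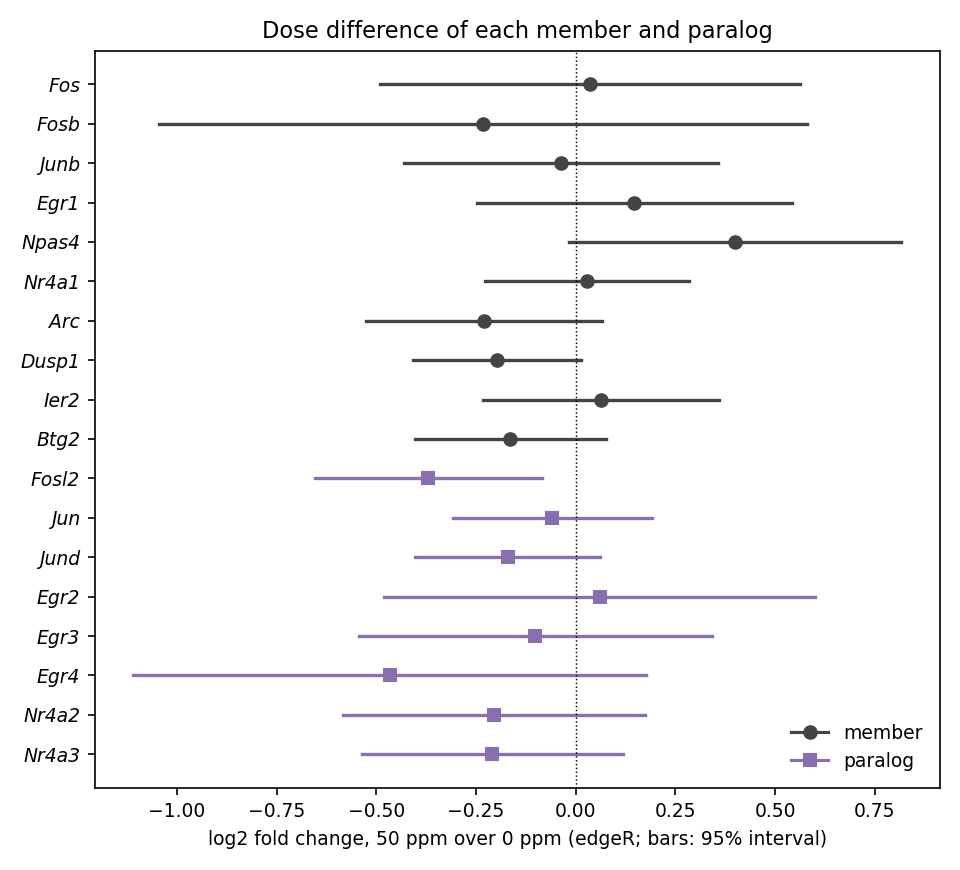
Log2 fold change at 50 ppm over 0 ppm from edgeR for the 10 members (circles) and for their Fos, Jun, Egr and Nr4a paralogs above the floor (squares), with 95% intervals as bars. All 10 members' intervals include 0, the widest being that of *Fosb* (−1.04 to 0.58), and *Fosl2* (−0.65 to −0.09) is the one paralog whose interval does not.

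Among the effector and feedback genes, *Dusp1* and *Btg2* had the narrowest intervals of all members. *Arc* (ENSMUSG00000022602, 15:74669083-74672570, minus strand) had 7.17, 8.85, 9.37 and 6.97 CPM in the control brains and 7.02, 7.72, 5.99 and 6.88 CPM in the exposed brains. Exposed replicates 3 and 4 lay below every control and the other exposed brains lay within the controls' range. Its log2 fold change was −0.23 (95% interval −0.53 to 0.07, exact permutation p = 0.171) and −0.15 without 0 ppm replicate 3. *Dusp1* (ENSMUSG00000024190, 17:26505590-26562128, minus strand) had 16.9, 16.0, 18.5 and 18.9 CPM in the control brains and 16.3, 15.1, 15.7 and 14.2 CPM in the exposed brains. Exposed replicates 2, 3 and 4 lay below every control and exposed replicate 1 lay above control replicate 2. The mean was 17.6 ± 1.34 CPM at 0 ppm and 15.3 ± 0.863 at 50 ppm (SD, n = 4), a log2 fold change of −0.20 with a 95% interval of −0.41 to 0.01. The exact permutation p was 0.0571 and the adjusted p of edgeR 0.999, so the difference did not pass.

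*Btg2* (ENSMUSG00000020423, 1:134075170-134079120, minus strand) had 14.0, 17.4, 15.9 and 16.0 CPM in the control brains and 14.7, 15.6, 14.5 and 11.6 CPM in the exposed brains. Exposed replicate 4 was the lowest library and the others lay within the controls' range, for a log2 fold change of −0.16 (95% interval −0.40 to 0.08) that was −0.085 without that library. *Ier2* (ENSMUSG00000053560, 8:84661331-84662852, minus strand), an early gene with a single exon, had 7.24, 6.44, 6.96 and 5.23 CPM in the control brains and 6.53, 7.58, 6.53 and 6.4 CPM in the exposed brains. Exposed replicate 2 was the highest library and control replicate 4 the lowest. The log2 fold change of *Ier2* was 0.06 (95% interval −0.23 to 0.36) and −0.024 without 0 ppm replicate 4. As folds of the control level, the 95% intervals at 50 ppm ran from 0.754 to 1.01 for *Dusp1* and from 0.756 to 1.05 for *Btg2*. That of *Fosb* ran from 0.485 to 1.5. Each interval is for a single gene and is not adjusted for the number of genes tested.

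Exon length, taken from the GENCODE annotation of GRCm38, puts the levels of different genes on 1 scale. In CPM per kilobase of exon over all 8 libraries, *Btg2* was the highest at 5.45 ± 0.620 (SD, n = 8), followed by *Dusp1* at 4.97 ± 0.482 and *Ier2* at 4.34 ± 0.462. *Egr1* followed at 3.53 ± 0.924, then *Nr4a1* at 3.04 ± 0.286, *Arc* at 2.45 ± 0.364, *Fos* at 2.17 ± 0.766 and *Junb* at 2.02 ± 0.409. *Npas4* at 0.601 ± 0.128 and *Fosb* at 0.197 ± 0.113 closed the order. Neighbours in this order whose means lay within the larger of their SDs were *Btg2* and *Dusp1*, *Ier2* and *Egr1*, *Egr1* and *Nr4a1*, *Arc* and *Fos*, and *Fos* and *Junb*, so those pairs are not ordered beyond their spread over libraries. Within a library, *Btg2* was above *Dusp1* and *Ier2* above *Egr1* in 7 of 8, *Arc* above *Fos* in 6, and *Egr1* above *Nr4a1* and *Fos* above *Junb* in 4. On the same scale *Btg2* lay above 66.8% and *Fosb* above 28.3% of the 23042 tested genes with a length, and the other 8 members lay between.

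The spread between the brains of a dose was very unequal among these genes. Each brain came from a separate litter, so differences between litters, pups and handling cannot be told apart. The SD of log2 CPM over the 4 control brains was 0.87 for *Fosb*, 0.63 for *Fos*, 0.43 for *Junb* and 0.11 for *Dusp1*. Over the 4 exposed brains it was 0.45 for *Fosb*, 0.26 for *Fos*, 0.05 for *Junb* and 0.08 for *Dusp1*, and that of *Egr1* was 0.47. Counting reads alone would give an SD of 0.25 at the mean count of *Fosb*, 0.13 at that of *Junb* and 0.12 at that of *Fos*. At the mean counts of *Egr1* and *Dusp1* it would give 0.07, and every pup adds its own variation to that. The SD of *Junb* over the exposed brains lay below its counting SD, so it does not show that these brains differed little in *Junb*. In edgeR's dispersion, which measures the spread between libraries beyond counting, *Fosb*, *Egr1* and *Fos* had 2.72, 2.44 and 2.35 times the value usual for genes of their level, more than in 97.9%, 97.0% and 96.7% of all genes tested. The ratio was 1.16 for *Junb* and between 0.695 and 0.848 for *Arc*, *Npas4*, *Nr4a1*, *Ier2*, *Dusp1* and *Btg2*. Without 0 ppm replicate 3, *Fos* and *Fosb* came down to the 47.8 and 56.7 percentiles and *Egr1* stayed at 98.1.

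**Figure D3:**
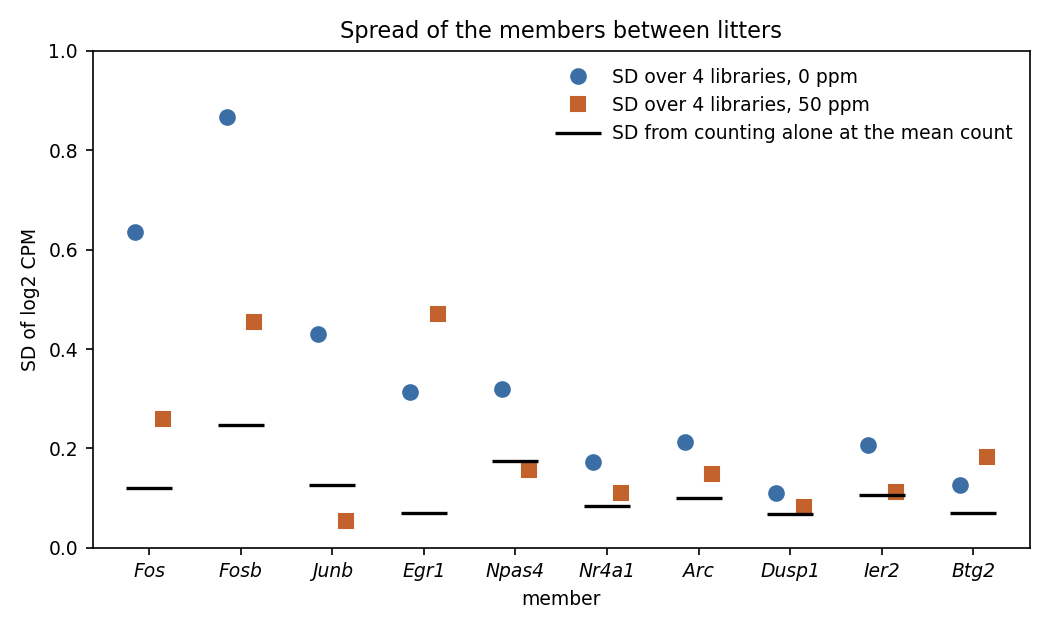
Spread of each member between brains, each from its own litter, as the SD of log2 CPM over the 4 brains of a dose. Horizontal marks give the SD from counting reads alone at the gene's mean count. The SD at 0 ppm runs from 0.11 (*Dusp1*) to 0.87 (*Fosb*), and that at 50 ppm from 0.05 (*Junb*) to 0.47 (*Egr1*).

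The members did not vary as 1 block across the brains. Of the 45 pairs of members, 30 had a positive and 15 a negative Pearson r of log2 CPM over the 8 libraries, with a median of 0.25 (0.16 without 0 ppm replicate 3), and 0 pairs had an adjusted p under 0.05 by exact permutation. Before adjustment 3 pairs had an exact p under 0.05 by Pearson's r and 1 by Spearman's rho. *Fos* and *Fosb*, neighbours in function, had r = 0.91 (exact permutation p = 0.00367, adjusted over 45 pairs 0.165) and rho = 0.69 (exact permutation p = 0.0694, adjusted 0.625). Leaving out 0 ppm replicates 1 and 3, the libraries farthest from the median of *Fos*, left r = 0.75 over 6 libraries. *Nr4a1* and *Ier2* had r = 0.85 (exact permutation p = 0.00925, adjusted 0.208) and rho = 0.71 (exact permutation p = 0.0576, adjusted 0.625), and r = 0.77 without 0 ppm replicates 3 and 4. *Fosb* and *Nr4a1* had r = 0.76 (exact permutation p = 0.0323, adjusted 0.485) and rho = 0.74 (exact permutation p = 0.0458, adjusted 0.625), and r = 0.85 without 0 ppm replicate 3 and 50 ppm replicate 4. None of these 3 relations passed the adjustment. With each gene centred on its dose mean, 33 pairs were positive and the median r was 0.22.

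The members differed in how closely each followed the others. Each gene was scaled to a z-score over the 8 libraries and set beside the mean of the other 9. As a description with no test, r was 0.91 for *Nr4a1*, 0.73 for *Ier2*, 0.66 for *Fosb*, 0.59 for *Arc*, 0.50 for *Fos*, 0.28 for *Egr1*, 0.25 for *Junb*, 0.22 for *Npas4*, 0.01 for *Btg2* and −0.21 for *Dusp1*. The mean z-score of all 10 was highest in 0 ppm replicate 3 (0.86), where *Fos*, *Fosb*, *Arc* and *Nr4a1* peaked, and in 50 ppm replicate 2 (0.59), where *Egr1*, *Npas4* and *Ier2* peaked. It was lowest in 0 ppm replicate 4 (−0.81), where *Fosb*, *Junb*, *Egr1*, *Nr4a1* and *Ier2* had their lowest level and *Dusp1* its highest. The highest and the lowest library were thus both controls.

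**Figure D4:**
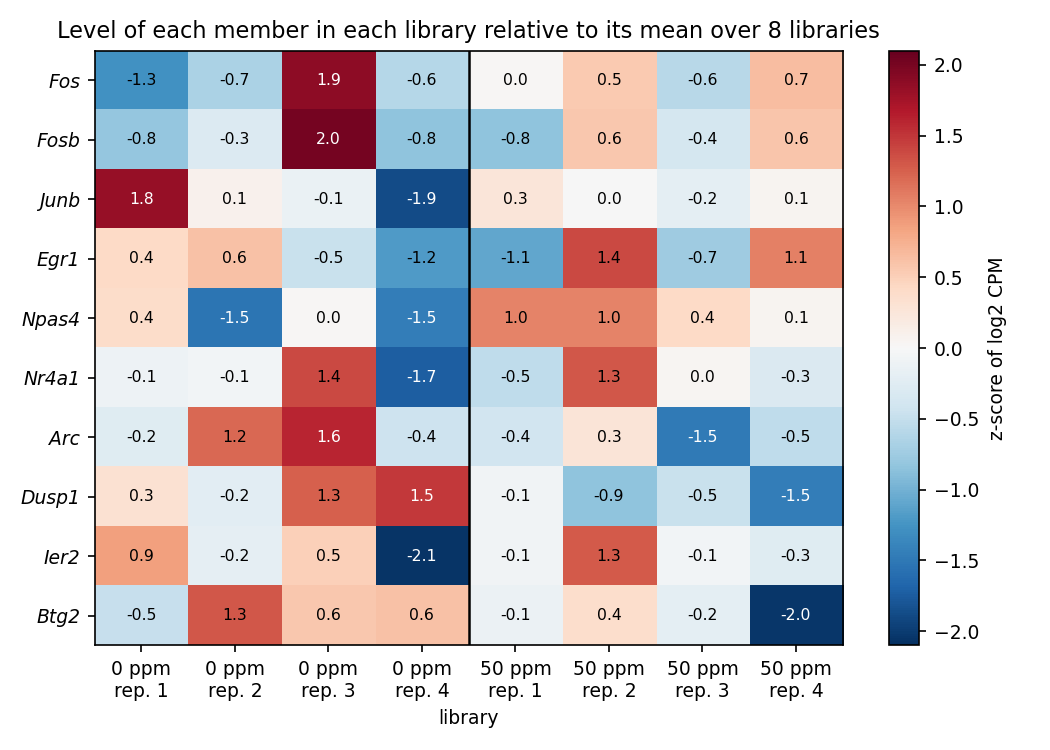
z-score of log2 CPM of each member (listed downward) in each library (listed across), relative to the gene's own mean and SD over the 8 libraries; red is above and blue below that mean. 0 ppm replicate 3 holds the peaks of *Fos*, *Fosb*, *Arc* and *Nr4a1*, and 0 ppm replicate 4 holds the lowest values of 5 members and the highest of *Dusp1*.

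Among the 14592 other genes with a mean of at least 1 CPM, the 10 whose log2 CPM followed that mean z-score most closely over the 8 libraries were no early genes. *Rps3a1*, a protein of the small ribosomal subunit, led with r = 0.95, followed by the processed pseudogene *Gm6206* (0.94), *Rpn1* of the oligosaccharyltransferase complex (0.94), *Cuta* (0.93) and *Uqcrfs1*, the iron-sulfur protein of respiratory complex III (0.92). *Gpr157* (0.92), *Zyx*, a focal adhesion protein (0.92), *Yif1b* (0.91), *Eef1b2*, a translation elongation factor (0.91), and *Qpct* (0.90) completed the set. These r are the highest of 14592 over 8 points and are given as a description. *Rps3a1* ran from 162 to 183 CPM, a narrow range beside that of *Fos*.

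Of 25 other immediate early transcription factors 24 were tested, 11 with a log2 fold change above 0 and 13 below, and edgeR, DESeq2 and limma-voom called 0, with 1 at an unadjusted p under 0.05 in edgeR (*Fosl2*, lower). The 3 with the smallest p were *Fosl2*, *Jund* and *Egr4*, and *Csrnp1* was listed at 0 in every library. Of 21 other early signalling and effector genes 20 were tested, 5 above 0 and 15 below, with 0 called and 1 at an unadjusted p under 0.05. That gene, *Arl4d*, a small GTPase, had 15.1, 14.7, 15.2 and 13.4 CPM in the control brains and 10.9, 13.0, 11.8 and 12.7 CPM in the exposed brains. Its exposed brains all lay below the controls, with a log2 fold change of −0.27 (95% interval −0.49 to −0.04) that did not pass. *Ier5l* (12.6 ± 0.930 and 10.9 ± 1.21 CPM at 0 and 50 ppm) and the kinase *Sik1* (53.8 ± 3.38 and 49.8 ± 3.48 CPM) were next by p, and *Amigo3* was listed at 0 in every library.

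Neuronal late response genes, which neurons turn on after the early factors and which act on synapses, numbered 11, with 7 above 0, 4 below, 0 called and 2 at an unadjusted p under 0.05, *Dusp14* and *Rasgrp1*. *Dusp14* had 5.22, 6.18, 5.06 and 5.07 CPM in the control brains and 3.89, 4.46, 4.67 and 3.97 CPM in the exposed brains. Every exposed brain lay below every control, yet its adjusted p was 0.999 by edgeR. *Rasgrp1*, a Ras activator, had 31.1 ± 2.22 and 26.7 ± 3.78 CPM, and *Rgs4*, which shortens G protein signalling, had 99.2 ± 5.77 and 109 ± 10.4 CPM at 0 and 50 ppm (SD, n = 4). The neurotrophin gene *Bdnf* had a log2 fold change of 0.02. Of 11 inhibitors of the ERK pathway 4 lay above 0 and 7 below, with 0 called and 1 at an unadjusted p under 0.05. *Dusp4*, a nuclear phosphatase of ERK, had 67.7 ± 4.63 and 58.8 ± 4.49 CPM at 0 and 50 ppm, a log2 fold change of −0.20 (95% interval −0.37 to −0.04), and *Spry4* (14.5 ± 1.33 and 16.3 ± 1.02 CPM) and *Dusp5* (4.23 ± 0.684 and 4.89 ± 0.804 CPM) followed.

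The regulators upstream of the early genes had small log2 fold changes between the doses. All 14 genes of the serum response factor and ETS arm were tested, 5 above 0 and 9 below, with 0 called, 0 at an unadjusted p under 0.05 and log2 fold changes from −0.11 to 0.10. *Srf* itself had 48.1 ± 3.95 CPM at 0 ppm and 45.1 ± 6.41 at 50 ppm, the ETS factor *Elk4* 41.7 ± 4.57 and 44.7 ± 3.90, and the kinase *Rps6ka5* 42.1 ± 7.58 and 39.0 ± 5.81 (SD, n = 4). All 16 genes of the CREB and calcium arm were tested, 8 above 0 and 8 below, with 0 called, 0 at an unadjusted p under 0.05 and log2 fold changes from −0.12 to 0.11. *Mef2c*, with the most counts in that arm, had 816, 689, 364 and 478 CPM in the control brains and 536, 572, 635 and 654 CPM in the exposed brains. It was highest and lowest in controls, replicates 1 and 3. The smallest p in the arm were those of *Mef2d* (138 ± 17.2 and 128 ± 2.16 CPM), the calcium-activated kinase *Camk4* (243 ± 33.0 and 263 ± 19.0 CPM) and the CREB coactivator *Crtc1* (168 ± 25.8 and 156 ± 5.55 CPM). RNA level says nothing of the phosphorylation that activates CREB, ERK or the ETS factors.

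Marker genes of brain regions differed widely between the libraries. The 8 brainstem and spinal cord markers summed to 6.66, 13.2, 51.3 and 58.2 CPM in the control brains and 149, 76.4, 48.2 and 68.3 CPM in the exposed brains. *Slc6a5*, the glycine transporter and the most abundant of them, had 0.239 and 2.38 CPM in 0 ppm replicates 1 and 2 and at least 21.0 CPM in the other 6 libraries, and *Hoxa4* was listed at 0 throughout. Of the 7 tested 7 lay above 0, 5 had an unadjusted p under 0.05 and 0 were called, with the smallest p for *Lbx1* (1.80 ± 1.47 and 6.15 ± 5.33 CPM), *Hoxb5* (4.27 ± 5.89 and 21.1 ± 17.9 CPM) and *Pax2* (4.43 ± 2.90 and 10.5 ± 6.29 CPM). The 7 glutamatergic markers, led by *Bcl11b*, summed to 1382, 1315, 953 and 1130 CPM in the control brains and 1065, 1069, 1216 and 1165 CPM in the exposed brains, 1 above 0 and 6 below with 1 at an unadjusted p under 0.05, and *Tbr1* and *Slc17a6* were next to *Bcl11b* by p. Thus 0 ppm replicate 1, where *Fosl2*, *Nr4a2* and *Nr4a3* peaked, had the least brainstem and the most glutamatergic marker RNA, and 0 ppm replicate 3, where *Fos* and *Fosb* peaked, had the least glutamatergic marker RNA by these sums. *Slc17a6*, the transporter of subcortical glutamatergic neurons, ran the other way, with its lowest level in 0 ppm replicate 1 (140 CPM) and 218 CPM in 0 ppm replicate 3. The part of tissue composition in these levels was not tested.

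**Figure D5:**
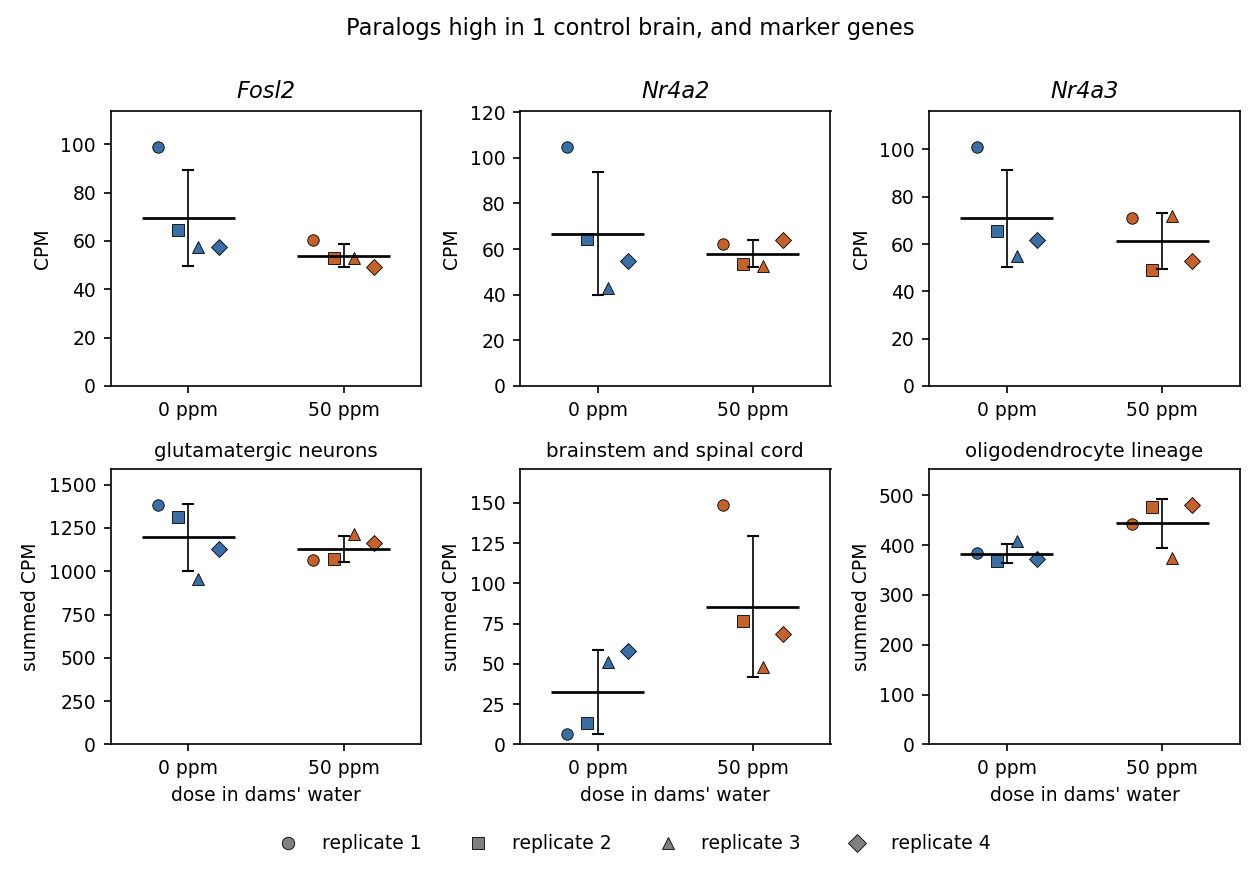
CPM of *Fosl2*, *Nr4a2* and *Nr4a3* (upper row) and summed CPM of glutamatergic, brainstem and spinal cord, and oligodendrocyte lineage markers (lower row) in each brain by dose; shapes give the replicate, lines the mean and bars the SD of 4 libraries. 0 ppm replicate 1 has the highest *Fosl2*, *Nr4a2* and *Nr4a3* (99.0, 105 and 101 CPM), the highest glutamatergic sum and the lowest brainstem sum.

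Markers of glia and interneurons included several genes with an unadjusted p under 0.05, and edgeR and limma-voom called 0 of them. DESeq2 called 4, with adjusted p of 0.00256 for *Mag*, 0.0360 for *Mbp*, 0.0455 for *Cnp* and 0.0197 for *Dlx1*, so these calls depend on the tool. The 8 oligodendrocyte lineage markers, led by *Pdgfra*, summed to 385, 367, 408 and 372 CPM in the control brains and 443, 476, 375 and 480 CPM in the exposed brains, with 7 above 0, 1 below and 4 at an unadjusted p under 0.05. *Mag* (2.54 ± 0.725 and 5.67 ± 1.51 CPM), *Mbp* (56.4 ± 3.79 and 79.1 ± 13.4 CPM) and *Cnp* (33.6 ± 5.71 and 48.3 ± 6.17 CPM), genes of myelin, had the smallest p, with adjusted p from edgeR of 0.169, 0.290 and 0.298. Astrocyte and radial glia markers, led by *Fabp7*, summed to 1504, 1118, 1634 and 1398 CPM in controls and 1609, 1682, 1455 and 1622 CPM in exposed pups, 7 of 8 above 0 and 3 at an unadjusted p under 0.05, with *Aqp4* (adjusted p = 0.271), *Aldoc* and *Gfap* first. GABAergic markers, led by *Gad1*, summed to 502, 521, 634 and 623 CPM in controls and 466, 553, 503 and 562 CPM in exposed pups, 1 of 6 above 0 and 3 at an unadjusted p under 0.05, and *Dlx1* (adjusted p = 0.232), *Dlx5* and *Dlx2*, factors of newborn interneurons, had log2 fold changes of −0.42, −0.40 and −0.37. *Mag*, *Mbp*, *Cnp* and *Dlx1* were also picked out by the study from these libraries, so their direction here is no independent evidence. The study required significance in both of its genome alignments. It also measured select genes by qRT-PCR in 8 pups per dose, among them the pups sequenced here. It reported *Mag* and *Mbp* as increased with dose. The part of these cell types in the early genes' levels was not tested.

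The remaining lists give the rest of the tissue. Neuron markers, led by *Map2*, summed to 4898 ± 283 CPM at 0 ppm and 5100 ± 151 at 50 ppm (SD, n = 4), 7 of 7 tested above 0 with *Nefl* (adjusted p = 0.789), *Snap25* and *Rbfox3* first, and *Tubb3*, which newborn neurons express strongly, was listed at 0 in every library, so a 0 in this table is not read as absence of the RNA. Of microglia genes, *P2ry12* had 8.01 ± 1.53 and 10.8 ± 2.16 CPM, *Csf1r* 32.2 ± 2.89 and 37.8 ± 3.59 CPM and *Cx3cr1* 18.4 ± 3.43 and 22.2 ± 2.30 CPM at 0 and 50 ppm (SD, n = 4). All 3 had an unadjusted p under 0.05, while *Tmem119* and *Aif1* had log2 fold changes of 0.01 and −0.14. Endothelial and pericyte markers, led by *Cldn5*, summed to 269 ± 22 and 290 ± 32.4 CPM, 7 of 8 above 0, with *Kcnj8*, *Pdgfrb* and *Flt1* first. Meninges and fibroblast markers, led by *Igf2*, summed to 900 ± 92.2 and 996 ± 41.7 CPM, 7 of 8 above 0, with *Slc6a13*, *Igf2* and *Col1a2* first. Of the genes of blood, the globin gene *Hbb-bs* had 51.1, 101, 110 and 128 CPM in the control brains and 40.1, 61.6, 169 and 81.6 CPM in the exposed brains, highest in 50 ppm replicate 3 and lowest in 50 ppm replicate 1. Skeletal muscle markers, led by *Acta1*, summed to 8.20 ± 0.715 and 8.23 ± 0.893 CPM, 3 of 6 above 0, with *Myh8*, *Ckm* and *Acta1* first. None of these genes was called by edgeR, and the counts at an unadjusted p under 0.05 were 1 for neurons, 1 for endothelium, 2 for meninges and 0 for muscle.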

How the data were processed

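Reads per gene were analysed for whole brains of 8 newborn females. The authors aligned single-end reads from a directional poly(A) library with STAR, counted them on genes with HTSeq and deposited the raw counts. The labels name FastQC and DESeq2 as well, without versions. The table aligned to the CAST/EiJ genome (8 columns) was not used here, since its identifiers are not paired with these gene names.

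A gene was left out if over 2/3 of its libraries had 0 counts. Counts were normalized by TMM and tested with edgeR 4.0.16 (glmQLFit, glmQLFTest) in R 4.3.3 in a model of dose. The Benjamini-Hochberg adjustment covered every gene that passed the filter, and adjusted p under 0.05 was called. The SE behind each 95% interval is the log2 fold change over the square root of F. Exact two-sided permutation tests and correlations used log2 CPM with a prior count of 2. Alternatives were DESeq2 1.42.0, its size factors, 2 other filters, the robust fit, limma-voom (limma 3.58.1, libraries weighted by quality), a prior count of 0.5 and each library left out. The pair of controls with little brainstem RNA was left out, and the spread refitted without each library, after the values were seen. The code was tested on simulated data.

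Members and lists were chosen with earlier results of these data known. Named genes are all members, every tested Fos, Jun, Egr and Nr4a paralog, the 3 genes with the smallest p in each other list, and the 10 genes most like the members' mean z-score. *Bdnf* and marker genes described by level were chosen after their values were seen, as were genes listed at 0. Some single marker genes, and the sums and counts that hold them, are not reported here. Symbols were matched for 49326 of 49585 identifiers. Exon coordinates come from GENCODE M21 on GRCm38, promoters from RefSeq (GRCm38.p6, 7 of 10 members matched). A count of 0 allows 3 counts, or 0.0980 to 0.132 CPM, for counting error only, and says nothing of how the count handled a gene, which was not tested for the 4 listed genes at 0 throughout. Pairs of libraries of 1 dose, 12 in all, differed beyond sampling noise (chi-square per degree of freedom 8.67 to 21.1). Figures were drawn with matplotlib 3.10.9.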

Additional observations from a re-analysis of the deposited data

Results flagged for a closer look

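In 11 of 170 groups of 4 libraries, over members, other named genes and summed lists, 1 library stood far from the other 3, and chance alone gives about 1 in 20. The share of the group's range taken by the gap to the nearest library is given for each. Among the members, 0 ppm replicate 3 was the highest control for *Fos* (8.88 CPM, next 4.03, share 0.861) and *Fosb* (2.81 CPM, next 0.967, share 0.888), and 50 ppm replicate 2 was the highest exposed brain for *Ier2* (7.58 CPM, next 6.53, share 0.888). Among the paralogs, 0 ppm replicate 1 was the highest control for *Fosl2* (99.0 CPM, next 64.4, share 0.836), and 0 ppm replicate 3 for *Fosl1* (0.0653 CPM, below the floor, share 0.853).

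Among the other named genes, 0 ppm replicate 2 was the highest control for *Dusp14* (6.18 CPM, next 5.22, share 0.855) and 0 ppm replicate 4 for the muscle gene *Ckm* (0.426 CPM, share 0.847). The exposed brain of replicate 4 was the lowest for *Srf* (35.6 CPM, next 47.6, share 0.895) and that of replicate 3 the lowest for *Snap25* (244 CPM, next 276, share 0.894). The exposed brain of replicate 1 was the highest for the brainstem and spinal cord genes *Lbx1* (14.1 CPM, next 3.84, share 0.910) and *Pax2* (19.9 CPM, next 7.54, share 0.962).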

How the results depend on the processing

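Under all 15 alternative fits 0 members were called, with a median log2 fold change between −0.11 and 0.11. Across the whole table edgeR called 4 genes, DESeq2 18, limma-voom 1, edgeR without the filter 52, with at least 10 counts in 4 libraries 2, and without 0 ppm replicates 1 and 2 together 7; leaving out each library gave 2 to 20.

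*Arc*, *Npas4*, *Dusp1* and *Btg2* kept their direction in every fit. With limma-voom and its sample quality weights *Fosb* was 0.066 and *Junb* 0.14, and without 0 ppm replicates 1 and 2 *Fos* was −0.33 and *Junb* 0.27, opposite to the main sign; the cause was not tested. Without those 2 libraries *Fosb* was −0.68, and *Egr1* (0.41) and *Dusp1* (−0.29) had an unadjusted p under 0.05, beside 1020 of 23841 genes. With each library left out in turn the log2 fold change lay between −0.13 and 0.47 for *Fos*, −0.43 and 0.47 for *Fosb*, −0.18 and 0.17 for *Junb*, −0.024 and 0.29 for *Egr1*, −0.038 and 0.10 for *Nr4a1* and −0.024 and 0.12 for *Ier2*. *Npas4* lay between 0.31 and 0.52, *Arc* between −0.29 and −0.15, *Dusp1* between −0.24 and −0.16 and *Btg2* between −0.22 and −0.085.

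Members whose groups did not overlap numbered 0 to 2 with a library left out (*Npas4* and *Btg2* without 0 ppm replicate 1, *Dusp1* without 0 ppm replicate 2 or 50 ppm replicate 1, *Fos* without 0 ppm replicate 3, *Npas4* without 50 ppm replicate 4), where 3.98% to 5.43% of all genes did not overlap. Members above the 95 percentile of spread numbered 3, and 1 to 3 with a library left out. Another prior count left 0 members past the permutation test, and that or DESeq2 size factors left 0 pairs past the adjustment. Leaving out 0 ppm replicates 1 and 2 together, and refitting the spread without each library, were chosen after seeing the data. No paired analysis was possible because the labels give no replicate number that pairs pups across doses. With 34.2 counts on average, *Fosb* is the member that depth limits most.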
